A study of Mus musculus with 18 samples.

Results

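Of the 27392 nuclear regions in the deposited accessibility table of mouse spleen, 786 held at least 1 read in every one of the 10 libraries made from tissue patches and no read in any of the 8 libraries made from 100 nuclei. These 786 regions, called patch-only regions here, were chosen by those read counts, with the mitochondrial genome left out. The counts that chose them are given as a description and carry no test. The assay was ATAC-seq, in which a transposase cuts and tags open DNA. Fresh frozen spleen sections of wild-type C57BL/6J mice were tagmented in place, and immunostained B or T cells were then cut out by laser capture. The groups were B patches (n = 5), T patches (n = 5), B libraries of 100 nuclei (n = 4) and T libraries of 100 nuclei (n = 4). A patch library was collected as 10 areas with about 1000 nuclei in all, the other kind as 100 nuclei taken singly, and the libraries of each group were technical replicates, per the labels. The markers stained and the age and number of the animals were not given in the sources used here, so libraries can share an animal and every p-value below measures only the spread between libraries.

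An accessible region is a stretch where nucleosomes are loose or absent, typically a promoter, where transcription starts, or an enhancer, which acts on a gene from a distance. Promoters of genes that all cells use tend to be open in every cell, while many enhancers are open in one cell type or in a part of the cells. B cells and T cells of the spleen share the first kind and differ in the second, with B cells opening sites at genes of the B cell receptor and antigen presentation and T cells at genes of the T cell receptor.

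Of the patch-only regions, 157 overlapped a promoter window of the RefSeq table (GRCm38.p6, the coordinates of mm10), which runs from 250 bases before a gene's start to 50 after it. The stretches below are the parts of such windows that lie before the start and inside a patch-only region, 5′ to 3′ on the gene's strand. They show the region with the highest level and the lowest adjusted p between B and T cells (Gm29952), the next highest level (Lin7c) and the widest of the regions (Chic2, Ptrh2 and Pcyt1a). Capitals mark matches on either strand to CCGGAA (the core of ETS factor sites), GGGCGG (the Sp/KLF box) or CCAAT (the NF-Y box), of which the Gm29952 and Lin7c stretches hold none.
Gm29952: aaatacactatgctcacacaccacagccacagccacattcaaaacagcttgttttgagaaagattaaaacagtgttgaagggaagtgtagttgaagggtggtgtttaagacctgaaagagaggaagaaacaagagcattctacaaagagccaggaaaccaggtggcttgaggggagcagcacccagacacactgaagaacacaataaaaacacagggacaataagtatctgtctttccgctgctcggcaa
Lin7c: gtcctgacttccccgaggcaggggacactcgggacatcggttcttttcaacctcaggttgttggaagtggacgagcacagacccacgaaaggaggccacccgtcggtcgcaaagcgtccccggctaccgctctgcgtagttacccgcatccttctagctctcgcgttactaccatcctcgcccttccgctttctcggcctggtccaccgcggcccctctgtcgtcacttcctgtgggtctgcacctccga
Chic2: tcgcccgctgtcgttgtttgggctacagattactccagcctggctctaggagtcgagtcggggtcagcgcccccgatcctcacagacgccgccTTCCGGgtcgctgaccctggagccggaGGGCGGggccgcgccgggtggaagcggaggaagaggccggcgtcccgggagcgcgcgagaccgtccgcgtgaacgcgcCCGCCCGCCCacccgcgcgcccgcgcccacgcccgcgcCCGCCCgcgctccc
Ptrh2: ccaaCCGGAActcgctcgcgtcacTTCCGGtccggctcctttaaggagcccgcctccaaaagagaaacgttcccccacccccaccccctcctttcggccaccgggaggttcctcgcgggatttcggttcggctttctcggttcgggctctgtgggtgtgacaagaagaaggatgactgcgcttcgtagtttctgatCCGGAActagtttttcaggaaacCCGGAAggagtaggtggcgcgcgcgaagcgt
Pcyt1a: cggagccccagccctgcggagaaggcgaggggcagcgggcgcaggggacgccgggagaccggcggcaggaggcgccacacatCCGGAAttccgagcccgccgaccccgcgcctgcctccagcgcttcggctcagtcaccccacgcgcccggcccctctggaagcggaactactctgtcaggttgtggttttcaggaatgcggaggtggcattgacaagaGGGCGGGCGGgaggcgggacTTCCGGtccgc
The Gm29952 stretch lies on the plus strand at chr12:80273187-80273436 and the Lin7c stretch on the plus strand at chr2:109890628-109890877. The Chic2 stretch lies on the minus strand at chr5:75044642-75044891, Ptrh2 on the plus strand at chr11:86683824-86684073 and Pcyt1a on the plus strand at chr16:32430671-32430920. The Gm29952 stretch was 44.4% G and C with 2 CG dinucleotides, against 76.4% and 41 in the Chic2 stretch. Over all windows that patch-only regions overlapped, the median G and C content was 60%, beside 62.7% in windows that other regions overlapped and 52.7% in all windows.

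The ETS core was in 33.1% of the 178 windows that patch-only regions overlapped, in 32.9% of the 9778 windows that other regions overlapped and in 14.9% of all 32851 windows. The Sp/KLF box was in 53.9%, 70.2% and 35.7% of those windows in the same order, and the NF-Y box in 26.4%, 39.6% and 37.4%. The RUNX site TGTGGT was in 11.2%, 11.7% and 16.8%, the E-box CACGTG in 6.18%, 11.4% and 7.15%, and the AP-1 site TGANTCA in 2.25%, 3.86% and 7.81%. All motifs were searched on both strands, N stands for any base, and matches of different motifs may overlap. These shares describe letters in the windows, not bound sites.

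Library facts bear on what follows. Total counts ran between 2713677 and 6553535 in B patches, 2193837 and 7343204 in T patches, 547333 and 720555 in B libraries of 100 nuclei and 319481 and 1076765 in T libraries of 100 nuclei. The 2 patch libraries numbered 2 stood apart, with reads in 75.4% of nuclear regions (B) and 74.2% (T), where the other patch libraries reached 90.1% or more. Summed over regions at the fixed markers, B cell genes had 890 to 1469 normalized CPM (counts scaled to 1000000 per library) in B patches and 171 to 320 in T patches, and T cell genes 232 to 341 and 1027 to 1402. Regions were assigned to 10 of 10 B cell and 11 of 12 T cell markers, Cd4 having none. Macrophage markers, with regions at 2 of 5 genes (none at Cd68, Vcam1 and Spic), had 117 to 203 CPM in B patches and 18 to 80.2 in T patches. Dendritic cell markers, with regions at 2 of 4 (none at Zbtb46 and Itgax), had 91.5 to 128 and 18.7 to 84.4. Stromal and endothelial markers, with regions at 3 of 5 (none at Pdgfra and Col1a1), had 84.4 to 151 in B and 140 to 234 in T. NK cell markers (2 of 3, none at Ncr1) had 120 to 208 and 104 to 164, erythroid and megakaryocyte markers (2 of 4, none at Gata1 and Hbb-bs) had 25.2 to 66.9 and 8 to 67.3, and none of the 4 neutrophil markers had a region. The part of these other cells in the differences below was not tested.

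The patch-only regions had low levels among regions read in every patch. Their mean level over the 10 patch libraries had a median of 11.9 normalized CPM and ran from 2.71 to 41.4, while the 12992 regions read in every patch and also at 100 nuclei had a median of 32.9 and ran from 1.88 to 533. In the lowest quintile of level, 1.88 to 15.5 CPM, 551 of 2756 regions were patch-only (19.99%). The share was 6.68% in the next quintile, 1.78% in the one after it, 0.0726% (2 regions) in the one below the top and 0 of 2756 in the top quintile. No test is given, since the counts at 100 nuclei made the choice.

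**Figure D1:**
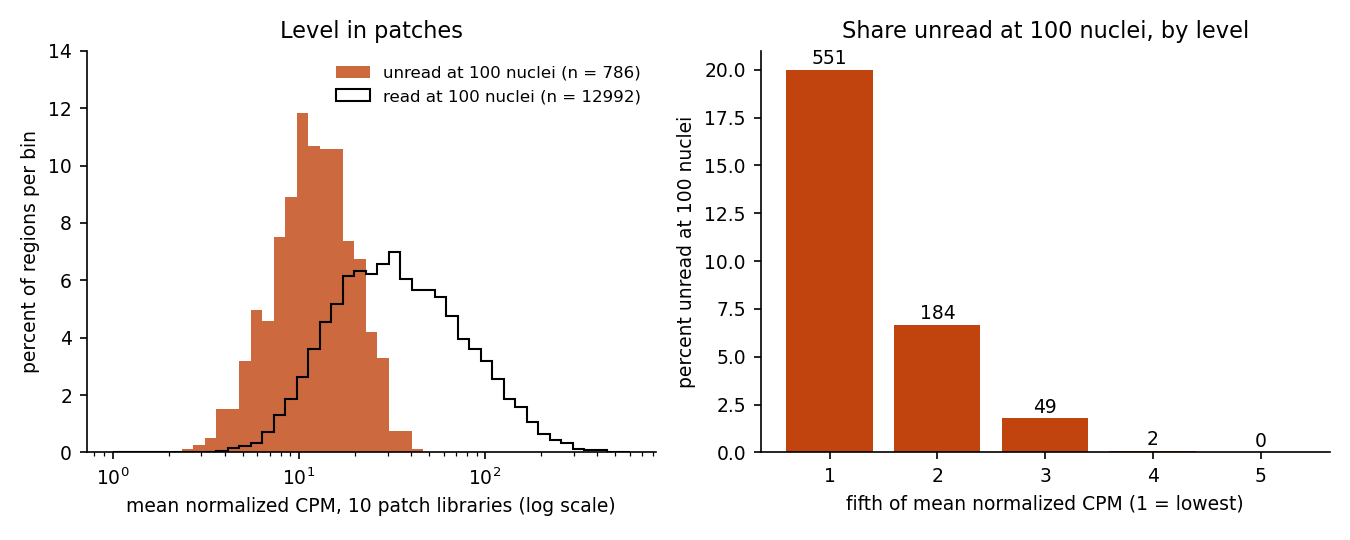
Left, distribution of mean normalized CPM over the 10 patch libraries (log axis) for the 786 regions unread at 100 nuclei and the 12992 regions read in every patch and at 100 nuclei, as percent of regions per bin. Right, percent of regions unread at 100 nuclei in each quintile of that level, with the number of such regions above each bar, which falls to 0 in the top quintile.

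The counts at 100 nuclei can be set beside the patch rates as a description, since the rule used both and fixed their order. Scaled by each region's share of nuclear counts in patches of the same cell type, the 8 libraries of 100 nuclei, with 3572563 nuclear counts in all, would have held 49879.9 counts in the 786 regions, a median of 56.6 and a lowest value of 13.1 per region. They held 0, which allows up to 0.840 per 1000000 nuclear counts at a region over the 8 libraries. Their patch levels were 3.70 to 54.8 on the same scale, and nothing is read from the gap. This limit covers counting error only, and reads were unevenly spread over regions. A nuclear region with any reads at 100 nuclei held a median of 22 to 87 counts depending on the library, although those libraries read 12.0% to 40.0% of the nuclear regions. In patch libraries that median was 56 to 106 (B) and 53 to 109 (T), with reads in 74.2% to 98.15% of nuclear regions.

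Regions of like level were often missed in most libraries of 100 nuclei. Among the 2541 regions read in every patch with a level inside the interquartile range of the patch-only regions, 8.65 to 16.7 CPM, 392 (15.4%) were patch-only. The other 2149 were read in a median of 2 of the 8 libraries, and 820 of them in 1 library alone. Any single library of 100 nuclei read between 9.96% and 35.9% of the 2149.

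The values on both sides of the rule were close. The member with the smallest patch sum held 111 counts over the 10 patches and lay 0.45 kb from Mir6372 (chromosome 11, 26201647 to 26201791), and 141 of the 786 had a lowest patch count of 1. Just outside the rule were 68 regions with 1 read in all at 100 nuclei, the highest of them near an end of Ampd3 (chromosome 7, 110768522 to 110768877) with 33.5 CPM and 1555 patch counts. A further 1258 regions were unread at 100 nuclei and lacked reads in 1 patch, the highest 34.4 kb from Olig3 (chromosome 10, 19321731 to 19322135) with 35.2 CPM.

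The regions were narrow. Their median width was 162.5 bases, with an interquartile range of 127 to 218 and a widest of 564, against a median of 352 for regions read in every patch and at 100 nuclei and 200 for all nuclear regions. Only 2.04% were wider than 400 bases, against 21.1% of all nuclear regions. Width and level went together, and within the interquartile range of level the medians were 160 bases for the 392 patch-only regions and 181 for the 2149 others. The widest region covered the shared promoter of Vmp1, needed to form autophagosomes, and Ptrh2, a mitochondrial peptidyl-tRNA hydrolase (chromosome 11, 86683618 to 86684182, 564 bases). It was followed by the promoters of Chic2 (501 bases) and Pcyt1a (496 bases), which makes an intermediate of phosphatidylcholine. At the shortest width in the table, 108 bases, the rule named regions 0.52 kb from an end of Phactr2, a regulator of protein phosphatase 1, 8.23 kb from Hspe1, a mitochondrial chaperonin, and inside Rai1 near Srebf1, a regulator of lipid synthesis.

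Fewer of the regions lay at gene ends than among all nuclear regions. Of the 786, 344 (43.8%) lay within 1 kb of either end of a gene, 281 (35.8%) farther inside a gene, 134 (17.05%) from 1 to 50 kb outside and 27 (3.43%) beyond. All nuclear regions had 50.6%, 31.8%, 14.9% and 2.74% in those classes, and regions read in every patch and at 100 nuclei had 63.7%, 25.9%, 9.68% and 0.693%. Within the interquartile range of level, the share at gene ends was 45.2% of the patch-only regions and 40.9% of the others, so the order turned. A listed start site lay within 1 kb of 36.9% of the patch-only regions and 43.4% of all nuclear regions. Start sites of chromosome 18 were not used, so both shares count its regions (22 patch-only, 743 in all) as having none. The median level was 13.01 CPM at gene ends, 11.8 inside genes, 11.6 from 1 to 50 kb outside and 6.69 beyond 50 kb.

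**Figure D2:**
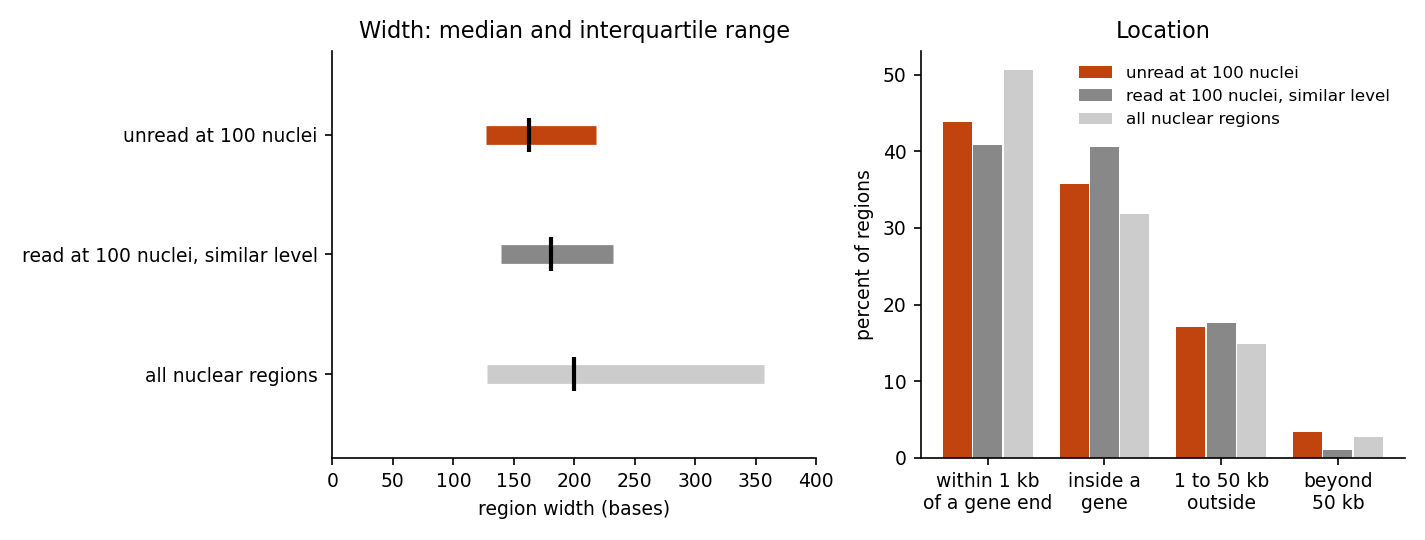
Left, median width (tick) and interquartile range (bar) in bases. Right, percent of regions in each location class. Groups are the 786 regions unread at 100 nuclei (red), the 2149 regions read in every patch and at 100 nuclei with a level inside their interquartile range (dark grey) and all 27392 nuclear regions (light grey). The red median, 162.5 bases, is below both others, and the red share at gene ends, 43.8%, lies between them.

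Patch-only regions lay close to another region about as often as other regions did. Of the 786, 331 (42.1%) had another region within 1 kb, beside 41.0% of all nuclear regions and 42.3% of the 2149 regions of like level read at 100 nuclei. The neighbour had reads at 100 nuclei in 266 of the 331 cases (80.4%), where 81.1% of all nuclear regions did. It was higher in patches in 188 of the 331 (56.8%), a share given without a value for other regions. By chromosome, the share of nuclear regions that were patch-only ran from 1.76% on chromosome 15 to 4.33% on chromosome 3, with 3.94% on the X chromosome and 2.87% over all. The 3 regions on the Y chromosome held none.

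A gene with a curated name had an end within 50 kb of 662 of the regions, which named 640 genes, 609 of them protein-coding. Of the 640, 22 had 2 patch-only regions and none had more, and 481 (75.2%) had another region that was read at 100 nuclei. The strongest region by level lay 12.7 kb from Actn1 and is described with the B and T values. The next was the promoter of Lin7c, a scaffold protein of cell junctions (chromosome 2, 109890606 to 109891098, whose sequence is printed above), at 42.8 ± 7.92 CPM in B patches and 36.4 ± 20.1 CPM in T patches, as mean ± SD of 5 libraries. A region inside Irs1, an adaptor of the insulin receptor (chromosome 1, 82283122 to 82283612), had 34.2 ± 8.35 and 43.6 ± 19.2 CPM. The shared promoter of Capza1, which caps actin filaments, and St7l (chromosome 3, 104864335 to 104864613) had 42.5 ± 18.2 and 31.3 ± 13.2 CPM, and the promoter of Acyp2, an acylphosphatase (chromosome 11, 30649035 to 30649465), 44.9 ± 18.3 and 26.6 ± 11.5. None of these 4 passed the test of B against T (edgeR adjusted p = 0.564 to 0.937).

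The regions took a like share of the nuclear counts in B and T patches. The share was 1.205%, 1.89%, 1.138%, 1.28% and 1.07% in B patches 1 to 5 and 1.30%, 2.04%, 1.16%, 1.55% and 1.22% in T patches 1 to 5. The groups overlapped, and in both the library numbered 2 was highest. These 2 libraries read the fewest nuclear regions of the patches, and the rule asked for a read in each of them. It gave 1193 regions without B patch 2 and 1200 without T patch 2. The rule thus chose for reads in these libraries, and their high share is not free of it. The means were 1.32% ± 0.331 for B and 1.45% ± 0.361 for T as mean ± SD of 5, and 1.17% ± 0.0892 and 1.31% ± 0.170 as mean ± SD of 4 without the libraries numbered 2. The median coefficient of variation of normalized CPM was 0.629 among B patches and 0.662 among T patches, where it was 0.401 and 0.435 for regions read in every patch and at 100 nuclei. Within the interquartile range of level it was 0.636 and 0.665 against 0.592 and 0.615.

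**Figure D3:**
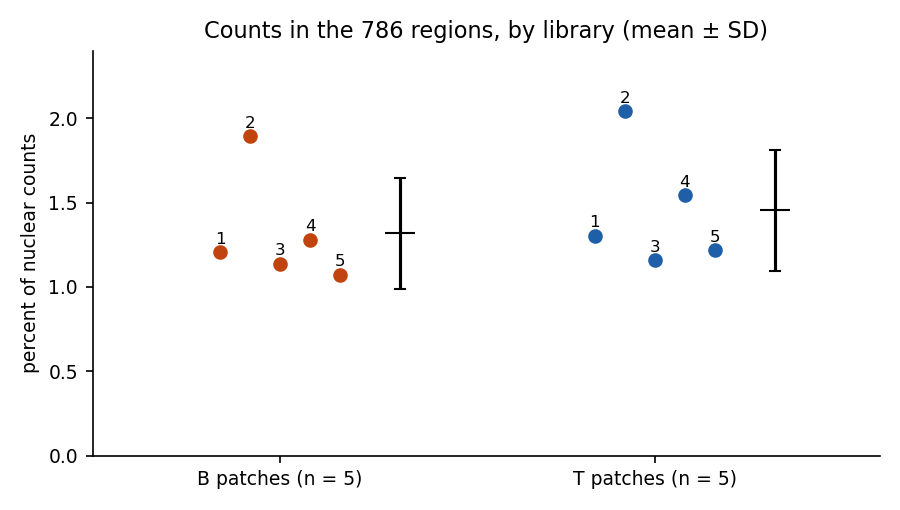
Percent of nuclear counts that fell in the 786 regions, one point per patch library, labelled with its replicate number; the bar gives the mean and the whiskers the SD (n = 5). Library 2 is the highest in both groups, at 1.89% (B) and 2.04% (T). It also read the fewest nuclear regions, and the rule asked for a read there in each of the 786.

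B and T patches were then compared region by region, and the rule did not use the cell type label. The rule did ask for a read in every patch, so a region without reads in one cell type could not be chosen. It also asked for 0 reads at 100 nuclei, where B libraries read 27.8% to 40.0% of nuclear regions and T libraries 12.0% to 38.8%. The choice can thus weigh unequally on regions higher in B or in T, and its part in the directions below was not tested. The fit covered 25712 regions of the whole table, of which 769 were patch-only; the other 17 were too low to test. Of the 769, 7 passed an adjusted p of 0.05 (edgeR quasi-likelihood test, Benjamini-Hochberg adjustment over all regions tested), or 0.910%, where 2.27% of all regions tested passed. All 7 were more accessible in T patches, where the background is 1.05%, and 0 were more accessible in B patches, where it is 1.22%. Among the 2149 regions of like level that were read at 100 nuclei, 4 passed (0.186%), 2 in each direction, and of the 7 only the one inside Ampd1 lay in that range of level, so fewer calls than at like level are not shown. By an unadjusted p under 0.05, 33 were higher in T and 19 higher in B (6.76% of the 769). All regions tested had 12.7%, with 1491 higher in T and 1776 higher in B. The 2149 of like level had 8.24%, with 79 higher in T and 98 higher in B. DESeq2 called 25 higher in T and 13 higher in B, and over all regions tested 989 and 1131. In bulk captures, fewer open cells of a type and less open chromatin per cell cannot be told apart.

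In edgeR the split by direction changed when T patch 2 was left out, and the reason was not tested. Without T patch 2 the test called 5 patch-only regions higher in B and 4 higher in T, and without both libraries numbered 2 it called 6 and 10, of which 5 were among the 7. Over all regions tested it called 391 higher in B and 250 higher in T without T patch 2, and 636 and 520 without both. The count was 4 without B patch 1, 4 or 5 or T patch 1, 4 or 5, and 3 without T patch 3. Over all 25712 regions these fits called 259 to 384. A joint fit of the 18 libraries, with 1 estimate of the spread per region over all 4 groups, called 0 of all 25712 regions, with 4 patch-only regions and 733 of all at an unadjusted p under 0.05. In it the log2 fold change was −3.25 near Actn1 and −2.83 at Thy1. All calls rest on technical replicates.

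The region with the lowest adjusted p lay 12.7 kb from Actn1, which encodes an actin crosslinking protein, across a start of the predicted gene Gm29952 (chromosome 12, 80273094 to 80273515; stretch printed above). It had 5.23, 16.1, 3.95, 4.04 and 11.6 normalized CPM in B patches 1 to 5 and 57.2, 94.0, 72.2, 56.4 and 92.9 in T patches 1 to 5. Every T patch lay above every B patch, by a log2 fold change (B over T) of −3.20 ± 0.48 (SE, adjusted p = 0.00241). The call held without any 1 of the 10 libraries (adjusted p = 0.000781 to 0.00976).

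The region at Thy1, the surface glycoprotein CD90 that marks T cells in mice, lay inside the gene at one end (chromosome 9, 44043247 to 44043494). It had 9.11, 10.2, 2.50, 8.30 and 4.30 CPM in B patches and 27.6, 72.8, 33.9, 48.4 and 50.0 in T patches. The groups did not overlap, and the log2 fold change was −2.76 ± 0.55 (SE, adjusted p = 0.0111), a call that also held without any 1 library (adjusted p = 0.00744 to 0.0306).

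Inside Fam107b, 5.81 kb from an end (chromosome 2, 3710626 to 3710796), the CPM were 7.32, 1.83, 1.25, 12.1 and 1.82 in B patches and 86.5, 39.2, 22.5, 64.1 and 28.1 in T patches. All T patches were higher, and the log2 fold change of −3.29 ± 0.68 (SE, adjusted p = 0.0139) lost its call without T patch 1 (adjusted p = 0.0635). Inside Ampd1, an AMP deaminase best known from muscle (chromosome 3, 103091834 to 103092096), the CPM were 0.896, 1.83, 2.71, 3.59 and 0.331 in B patches and 26.1, 14.4, 24.0, 28.2 and 40.7 in T patches. This was the lowest B level of the 7, with 2 to 16 reads per B library. The log2 fold change was −3.83 ± 0.85 (SE, adjusted p = 0.0196), and the call was lost without B patch 1 or T patch 3 or 5 (adjusted p = 0.0547, 0.0535 and 0.0716).

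Btg1, which restrains proliferation of lymphocytes, had a called region 17.2 kb away, beside the predicted gene Gm33843 (chromosome 10, 96599701 to 96599844). Its CPM were 16.1, 2.56, 5.41, 4.26 and 5.78 in B patches and 16.7, 111, 40.5, 53.1 and 7.08 in T patches. The groups overlapped, since T patch 5 lay below B patch 1. The log2 fold change was −2.72 ± 0.70 (SE, adjusted p = 0.0421), the call held only without B patch 1 or T patch 1 or 5 when 1 library was left out (adjusted p = 0.0245 to 0.143 over the 10), and without both libraries numbered 2 it was −1.88 (adjusted p = 0.136).

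The remaining called regions had no named gene end within 50 kb. One lay inside Uvrag, which acts in autophagy and endosome transport, 53.9 kb from its end (chromosome 7, 99087048 to 99087304). It had 4.03, 9.13, 25.4, 8.97 and 10.7 CPM in B patches and 38.2, 94.0, 44.9, 31.7 and 38.0 in T patches, with no overlap and a log2 fold change of −2.08 ± 0.54 (SE, adjusted p = 0.0435). The other lay 71.1 kb from Btg1 and 21.7 kb from the predicted gene Gm33897 (chromosome 10, 96693893 to 96694072). It had 5.38, 14.6, 4.99, 9.20 and 9.42 CPM in B patches and 19.0, 54.4, 44.0, 37.4 and 32.7 in T patches, again with no overlap, and a log2 fold change of −2.11 ± 0.56 (SE, adjusted p = 0.0488). With 1 library left out, the Uvrag region was called only without B patch 3 (adjusted p = 0.0291 to 0.109 over the 10), and the other only without B patch 2 (adjusted p = 0.0233 to 0.143).

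**Figure D4:**
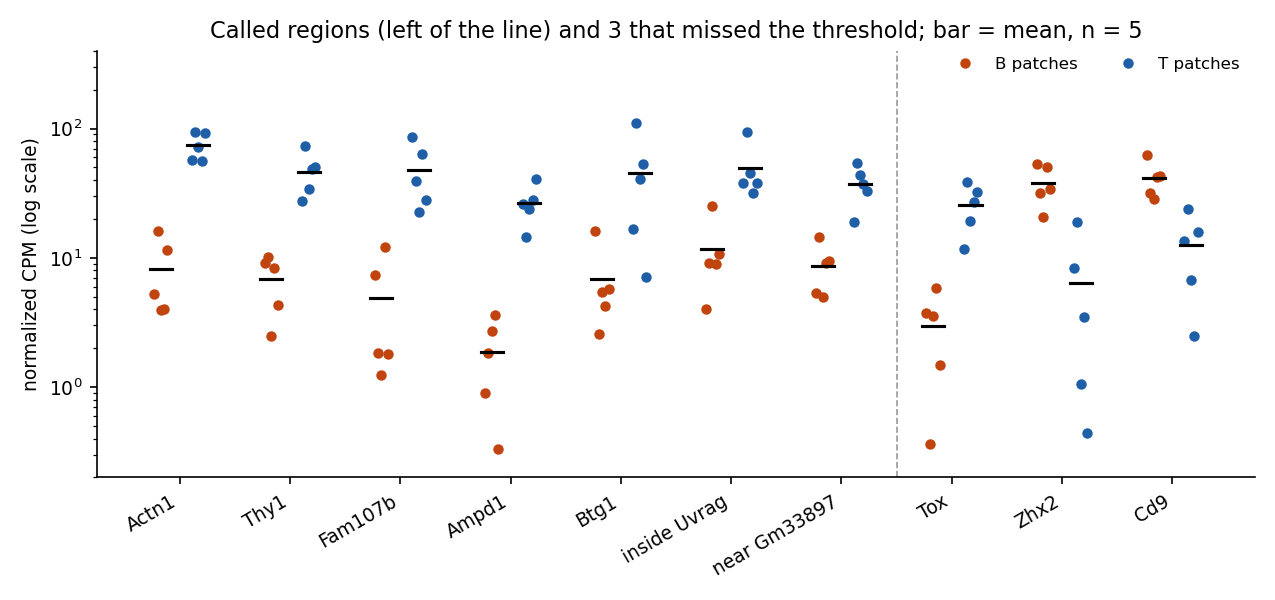
Normalized CPM (log axis) of each patch library at the 7 called regions, ordered by adjusted p, and, right of the dashed line, at the regions of Tox, Zhx2 and Cd9, which missed the threshold; black bars are means (n = 5). T patches lie above B patches at the called regions, with overlap at Btg1 alone.

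The groups were fully apart at few of the regions. Of the 769 regions, 34 (4.42%) had B and T patches that did not overlap, 10 higher in B and 24 higher in T, where 8.03% of all regions tested did, 4.33% higher in B and 3.69% higher in T. The share was 5.54% for the 2149 regions of like level read at 100 nuclei (65 with B above T, 54 with T above B). Among those of at least median level that were not called, Tox, an HMG-box factor of T cell development, had the lowest log2 fold change. At its region, which lies inside the gene within 1 kb of an end (chromosome 4, 6991185 to 6991335), the CPM were 3.73, 0.365, 3.54, 5.83 and 1.49 in B patches and 11.6, 38.4, 19.1, 26.9 and 32.5 in T patches. The log2 fold change was −3.08 ± 0.83 (SE) and missed the threshold (adjusted p = 0.0524), and the region was called without both libraries numbered 2 (adjusted p = 0.0413). With 1 library left out, the Tox region was called only without B patch 2 (adjusted p = 0.0439 to 0.131 over the 10).

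On the B side, the same choice was led by Zhx2, a transcriptional repressor (inside the gene; chromosome 15, 57812942 to 57813227). It had 53.0, 31.8, 20.6, 50.0 and 34.4 CPM in B patches and 8.35, 18.8, 1.05, 3.49 and 0.442 in T patches. Every B patch was above every T patch, and the log2 fold change of 2.59 ± 0.78 (SE) did not pass (adjusted p = 0.0895). With 1 library left out, the region was called only without T patch 2, at 3.51 (adjusted p = 0.0151). Without any other 1 library the adjusted p was 0.0889 to 0.226. Inside Cd9, a tetraspanin carried by marginal zone B cells (chromosome 6, 125467290 to 125467624), the CPM were 62.1, 31.8, 28.3, 42.0 and 43.0 in B patches and 13.4, 24.0, 6.72, 2.49 and 15.7 in T patches. These groups were also apart, with a log2 fold change of 1.74 ± 0.57 (SE, adjusted p = 0.127). With 1 library left out, the Cd9 region was called only without T patch 2, at 2.09 (adjusted p = 0.0486). Without any other 1 library its adjusted p was 0.1 to 0.34. The next were 1.35 kb outside Cdh23, a cadherin known from the inner ear, at 1.6 ± 0.75 (SE, adjusted p = 0.376) and 4 kb outside Map3k19, a kinase, at 1.503 ± 0.68 (SE, adjusted p = 0.342).

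Over all 769 regions, values of B and T were centred close to each other. The median log2 fold change was −0.09, beside −0.03 over all regions tested, and its sign turned without T patch 2. There it was 0.04, beside −0.07 over all regions tested, and without B patch 2 it was −0.25, beside 0.01. The interquartile range was −0.68 to 0.47, beside −0.58 to 0.54 over all regions tested, and 27.2% of the regions had a value beyond 1 in either direction, against 30.8%. The median standard error was 0.87, close to the size of a 2-fold difference, which is 1 on the log2 scale. Medians by location were −0.16 at gene ends, −0.02 inside genes, 0.02 from 1 to 50 kb outside and −0.07 beyond 50 kb.

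**Figure D5:**
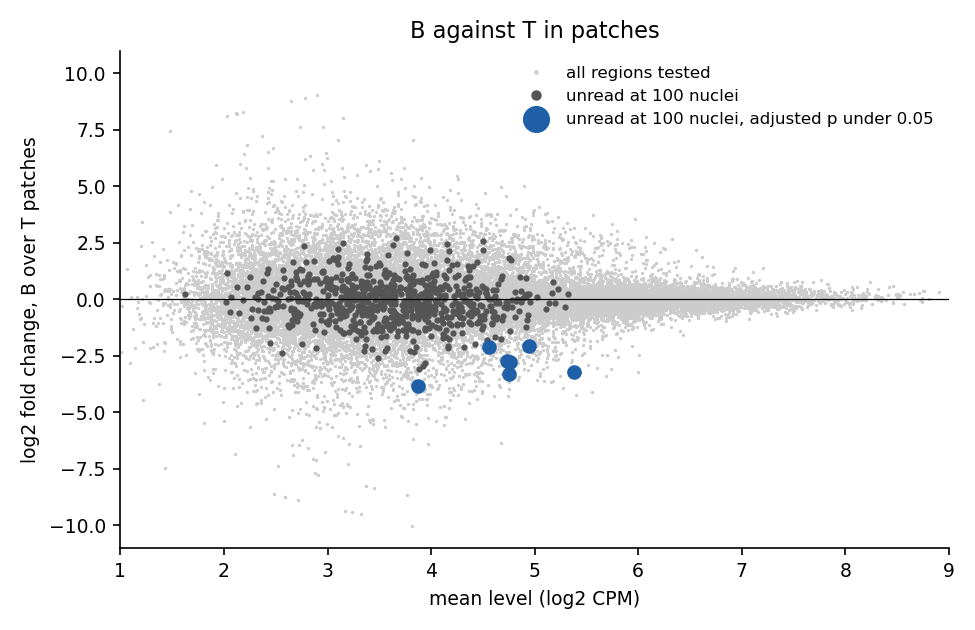
Log2 fold change of B over T patches against mean level (log2 CPM) for the 25712 regions tested (light grey), the 769 tested regions unread at 100 nuclei (dark grey) and the 7 of them with an adjusted p under 0.05 (blue). All blue points lie below 0, higher in T, between −3.83 and −2.08.

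The 18 lists of lymphocyte, chromatin, housekeeping and cell type genes held patch-only regions at close to the share of all nuclear regions. Of the 955 nuclear regions assigned to their genes, 28 (2.93%) were patch-only, at 24 genes, beside 2.87% of all nuclear regions. None of the 28 passed edgeR for B against T, and 4 had an unadjusted p under 0.05, among them Cd3d, Ets1 and Ikzf2. DESeq2 called 3 of the 28, among them Cd3d and Ets1. Over all 25712 regions tested, 3267 (12.7%) had an unadjusted p under 0.05 and DESeq2 called 2120, so these small counts do not set the lists apart. Their median log2 fold change was −0.15, with a range of −2.202 to 2.42. Of the 934 list regions tested, 73 were called.

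Lymphocyte transcription factors held 10 of the 28 regions, out of 121 at that list, and 0 of the 10 passed. They were assigned to Bcl6, the repressor of germinal centre B cells, Prdm1, which encodes the plasma cell factor Blimp-1, and Ikzf1, which encodes Ikaros, with 2 each, and to Ets1, Fli1, Ikzf2 and Tcf12 with 1 each. At the region 0.08 kb from an end of Bcl6 (chromosome 16, 23988570 to 23988786) the means were 17.8 ± 7.61 CPM (B patches) and 31.2 ± 13.97 CPM (T patches), and at the wider region inside Prdm1 (chromosome 10, 44448144 to 44448494) they were 19.4 ± 10.0 and 22.3 ± 14.6. The edgeR log2 fold changes were −0.80 ± 0.53 and −0.20 ± 0.61 (SE, adjusted p = 0.641 and 0.968). A region inside Ets1 (chromosome 9, 32668175 to 32668322) averaged 20.2 CPM in B and 3.77 in T, at 2.42 ± 0.90 (SE, adjusted p = 0.201), and one at an end of Ikzf2, which encodes Helios (chromosome 1, 69687196 to 69687312), 3.66 and 16.96 CPM, at −2.202 ± 1.04 (SE, adjusted p = 0.379).

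T cell identity genes held 4 of 118 regions, assigned to Cd3d, Cd8b1, Ets1 and Zap70 by the nearest gene end, and 0 of the 4 passed. Of the 115 regions of this list that were tested, 2 were called higher in B and 17 higher in T. The median log2 fold change of the 4 was −1.315, and the Ets1 region, given above, had the higher mean in B. Inside Cd3d, a chain of the T cell receptor complex (chromosome 9, 44985898 to 44986094), the CPM were 14.5, 1.83, 4.16, 2.24 and 9.25 in B patches and 26.8, 38.8, 46, 12.0 and 19.7 in T patches. The groups overlapped, since T patch 4 lay below B patch 1, and the log2 fold change was −2.14 ± 0.73 (SE, adjusted p = 0.147). At 16.3 kb from Cd8b1, a chain of the CD8 coreceptor, it was −1.39 ± 0.88 (SE, adjusted p = 0.606). B cell identity genes held 1 of 95, 32.4 kb from Cd83, a surface protein of activated B cells, at 1.56 ± 0.99 (SE, adjusted p = 0.609). B cell receptor signalling held 1 of 116, 0.57 kb from an end of Vav3, a guanine nucleotide exchange factor, at −1.24 ± 0.97 (SE, adjusted p = 0.735). T cell receptor signalling held 1 of 76, at Cd226, a costimulatory receptor, at −1.40 ± 0.93 (SE, adjusted p = 0.64).

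Lymphocyte homing genes held 3 of 76 regions, among them one 27.5 kb from Gpr183, a receptor that positions B cells, and one 39.4 kb from Itga4, an integrin chain, and 0 of the 3 passed. The log2 fold changes at Gpr183 and Itga4 were −0.53 ± 0.69 and 0.02 ± 1.30 (SE, edgeR adjusted p = 0.895 and 0.998). NF-kB and AP-1 genes held 3 of 62, with 2 at 17.6 and 22.3 kb from Ikbkb, a kinase that activates NF-kB, and 1 inside Batf, an AP-1 factor. Cytokine receptor and JAK-STAT genes held 2 of 90, inside Il6ra and 14.5 kb from Jak2, and chromatin regulators 2 of 83, at Chd7 and Kmt2a. For the 7 regions of these 3 lists the log2 fold changes ran from −1.37 to 0.47 and the adjusted p from 0.567 to 0.985.

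Macrophage markers held 1 of 5 regions, 14.3 kb from Adgre1, which encodes F4/80, at 1.09 ± 0.69 (SE, adjusted p = 0.605), and NK cell markers 1 of 11, 10.7 kb from Klrb1c, at −0.20 ± 1.18 (SE, adjusted p = 0.986). MHC class II genes held 0 of 38, ubiquitin ligases and deubiquitinases 0 of 63, housekeeping genes 0 of 38, dendritic cell markers 0 of 7, erythroid and megakaryocyte markers 0 of 2 and stroma and endothelium 0 of 7. Neutrophil markers had no regions.

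Where a gene had 2 patch-only regions, the pair did not always lean the same way. At Tspan13, a tetraspanin, the region 2.75 kb from the end (chromosome 12, 36039562 to 36039727) averaged 24.4 ± 10.9 CPM in B patches and 12.3 ± 11.1 in T patches, and the one 0.34 kb from it (chromosome 12, 36041806 to 36042139) 17.6 ± 9.22 and 32.9 ± 10.6 (SD, n = 5 each). Their log2 fold changes were 0.998 ± 0.69 and −0.89 ± 0.53 (SE, adjusted p = 0.663 and 0.556). At Zfp777, a zinc finger gene, the values were −1.08 ± 0.69 and 0.93 ± 1.08 (SE, adjusted p = 0.614 and 0.87). The Zfp777 regions lie 14 bases apart (chromosome 6, 48048422 to 48048737 and 48048751 to 48048874). At Cd101, an inhibitory surface receptor, the values were −1.49 ± 0.70 and −0.48 ± 0.96 (SE, adjusted p = 0.381 and 0.948). No difference within a pair was tested.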

How the data were processed

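The authors deposited 1 table of raw counts per region for 18 libraries of paired-end ATAC-seq, with no normalization, and column names gave the library. Tools named, per the submitters' processing notes, include the aligner Bowtie2 2.4.5, the peak caller MACS2 2.2.7.1 and SAMtools 1.14, with build mm10. The steps behind the region set and any removal of duplicates are not stated, nor is whether starts count from 0 or 1, so region edges may be off by 1 base. No molecular identifiers are mentioned, so a read is not an independent molecule.

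Regions and gene lists were chosen with earlier results of these data known. Genes came from a RefSeq table of GRCm38.p6 (pseudogenes left out, predicted genes not used for names), by the nearest gene end within 50 kb. Start sites came from 32851 RefSeq promoter windows of 27025 genes, chromosome 18 not used here.

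B and T patches were compared with edgeR 4.0.16 in R 4.3.3 (TMM, quasi-likelihood F-test, minimum count 10 over the 4 groups, Benjamini-Hochberg at 0.05), mitochondrial regions included in library sizes. Standard errors divide the log2 fold change by the root of its F statistic. Normalized CPM use TMM-scaled library sizes, as mean ± SD. The script was tested on simulated data, and the outcome is not reported here. The rule for named regions took called ones, the furthest apart, the highest, widest and narrowest, genes with most regions and up to 2 per list; the printed part was picked after values were seen. Where fewer than 8 regions were called, the 4 highest and 4 lowest non-overlapping ones were added. Alternatives were DESeq2 1.42.0, other scalings, filters and distances, a joint fit, a replicate block and each library left out. The values of 1 region of a gene list are not reported here.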

Additional observations from a re-analysis of the deposited data

Results flagged for a closer look

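In groups of 5 libraries, a single value was far from the other 4 in 10 of the 96 groups looked at. All 10 were high values, and 7 of the 10 were libraries numbered 2. The usual rate of about 1 in 20 holds for independent, normally distributed values. These groups share the same 10 libraries, so nothing is read from that rate. The rule asked for a read in every patch, so high values in the sparse libraries numbered 2 are not free of it. The patch-only regions took 1.89% of nuclear counts in B patch 2, where the other B patches reached 1.28%. B patch 2 was also highest at both regions of Cd101, with 25.9 normalized CPM (next 8.75) and 37.3 (next 5.83), and at Jak2 with 47.5 (next 8.81). T patch 2 was highest inside Uvrag with 94.0 (next 44.9), near Hspe1 with 20.8 (next 2.78) and at the region 2.75 kb from Tspan13 with 31.6 (next 10.5). B patch 1 was highest near Btg1 with 16.1 (next 5.78) and near Adgre1 with 44.1 (next 20.4), and T patch 4 at Lin7c with 71.6 (next 32). What sets these libraries apart was not tested.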

How the results depend on the processing

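The count of patch-only regions called between B and T, 7, was 6 to 10 with other scaling factors, without mitochondrial regions, without a filter or with a minimum of 2 reads per patch. It was 38 with DESeq2, 3 with the replicate number as a block, 0 in a joint fit of 18 libraries, which called 0 of all regions, and 16 without both patch libraries numbered 2, a setting chosen after seeing the data, and 3 to 9 with 1 library left out. Over all regions tested the calls were 583 in the reported fit, 2120 with DESeq2, 215 with the block and 1156 without both libraries numbered 2. The cause was not tested. Libraries that share a number were not paired by the data (r of deviations from −0.007 to 0.033), and no label says that numbers pair them. Only the patch libraries numbered 2 correlated best with their own number (r = 0.033). The median log2 fold change was −0.26 with library size alone, where that over all regions tested was −0.19, and −0.25 to 0.04 with 1 library left out. The rule gave 794 to 1200 regions with 1 library left out, and 1880 without both libraries numbered 2, with a median width of 147 bases. The share at gene ends was 33.1% within 500 bases and 50.2% within 2 kb. The median standard error was 0.87 over the patch-only regions and 0.83 over all regions tested. The limit given for a count of 0 covers counting error only.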
